A study of Oryctolagus cuniculus with 3 samples.

Results

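The 7 genes described here encode receptors through which the pituitary, the ovary and the uterus act on the ovarian follicle or the corpus luteum. FSHR and LHCGR bind the gonadotropins, PRLR binds prolactin, PTGFR binds prostaglandin F2 alpha, ESR1 and ESR2 bind estradiol, and PGR binds progesterone. They were chosen by name, as the coding rows of the gene table whose gene name is exactly one of these symbols, and are 7 of 39681 rows, 20008 of which hold a RefSeq messenger RNA. The names were carried by 16 rows, the other 9 being assembled loci inside FSHR, PRLR and ESR1 without a messenger RNA, and by 7 transcripts of the long non-coding table.

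RNA came from cumulus-oocyte complexes, oocytes with their surrounding somatic cells, of female IRA rabbits that were 35 days old at the start and lived for 4 weeks at a set ammonia (NH3) level, per the labels. The library labelled LAC is from 10 ppm, the library labelled HAC from 30 ppm, and the library labelled CG from under 3 ppm. The study divided 150 rabbits among the groups, and each group has 1 library. The number of rabbits behind a library and their ovarian stage are not stated in the labels. Differences between libraries therefore have no replicate check, and no test was made.

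The estimated counts summed to 68523767 in LAC and 78461882 in CG, and a deposited count stands for about 0.5 reads. The gene tables in the LAC and HAC files were identical in all 39681 rows and both headed LAC, so receptor genes have values in 2 libraries and only long non-coding transcripts have values in all 3. The label of the shared gene table is uncertain. Its highest FPKM, 39492, is the maximum the HAC file states, whereas the LAC file states 86394. A direction drawn from LAC or HAC thus assumes the label. Rows without a messenger RNA held 34.2% of counts in LAC and 24.6% in CG, and spliced reads made up 16.23% in the LAC file, 19.89% in the HAC file and 22.01% in the CG file. The valid read totals of the mapping and statistics blocks are exchanged between the LAC and HAC files, so the label of the library with the 16.23% is uncertain. Its read total, 72520954, is that of the statistics block that states the shared gene table's highest FPKM. The summed oocyte markers stood at 935 CPM in LAC and 4790 CPM in CG, with 15 of 15 lower in LAC by at least 1 on the log2 scale. The granulosa and cumulus markers summed to 15270 CPM in LAC and 15471 CPM in CG, with 5 of 11 above 0 and 6 below. By at least 1 on the log2 scale, 0 were higher and 1 lower in LAC, SLC18A2, with 8.14 CPM in LAC and 47.2 CPM in CG. CPM is an estimated count relative to a library size scaled by the trimmed mean of M values (TMM).

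As background, FSH acts through FSHR on granulosa cells and raises cyclic AMP by way of the stimulatory G protein, which drives aromatase and inhibin genes. LH acts through LHCGR on theca cells and on the granulosa cells of the preovulatory follicle, and cumulus cells usually carry little of it. Prolactin signals through PRLR and the kinase JAK2 to STAT5 and supports the corpus luteum of many mammals. Prostaglandin F2 alpha acts through PTGFR, coupled to Gq, in luteolysis. The steroid receptors are ligand-activated transcription factors: in rodents ESR2 is the main estrogen receptor of granulosa cells and ESR1 that of theca and stroma, and PGR is induced in granulosa cells by the LH surge.

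All 7 receptor genes were counted in both libraries, and 6 of them had a higher scaled count in LAC than in CG. FSHR, LHCGR, PRLR, PTGFR, ESR1 and PGR had LAC to CG ratios of 1.20 to 2.19, and ESR2 was the exception at 0.299. None of the 7 reached the size rule, a difference of at least 1 on the log2(CPM + 1) scale with at least 10 counts in the higher library. Among 15009 coding genes with enough counts, 1.89% were higher and 11.0% lower by that rule, and 38.1% had any positive difference. The median difference of LAC minus CG was 0.53 over the receptor genes and -0.14 over those coding genes. With TMM factors taken from coding genes alone, every log2 ratio moves up by 0.18, the coding median becomes -0.00 and the receptor median 0.62, with 6 of 7 still above 0. In bulk RNA, fewer cells of a type and less RNA per cell cannot be told apart.

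**Figure D1:**
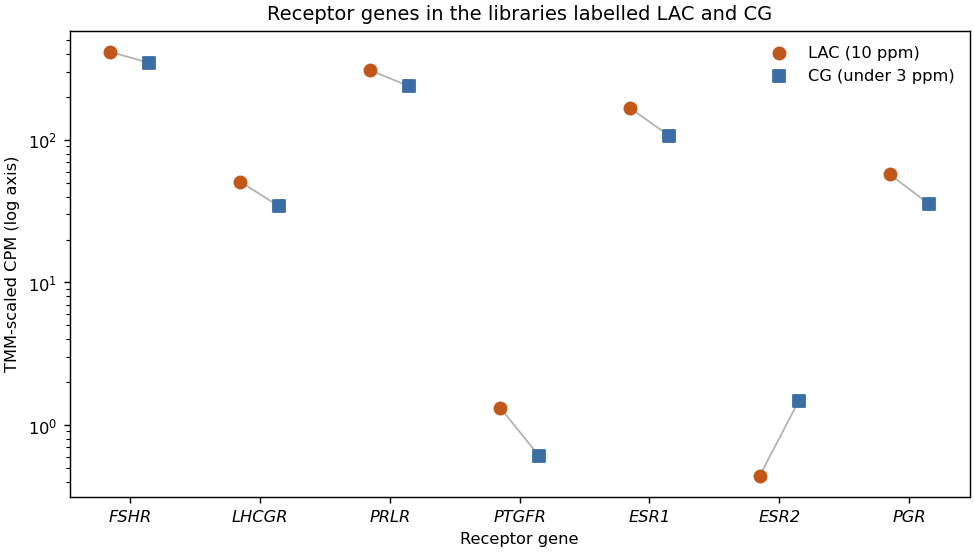
TMM-scaled CPM of the 7 receptor genes (log axis) in the library labelled LAC (orange circles, 10 ppm) and the library labelled CG (blue squares, under 3 ppm), with 1 library per group and a line joining the values of a gene. LAC lies above CG for 6 genes, and ESR2 has 0.44 CPM in LAC and 1.48 CPM in CG. CPM is not scaled by gene length, so heights of different genes are not comparable.

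Of the gonadotropin receptors, FSHR (MSTRG.2813, OryCun2.0, NC_013670.1, 137267144 to 137431564, plus strand) had 28144 estimated counts in LAC and 27419 in CG, which is 414 CPM in LAC and 346 CPM in CG. The ratio of LAC to CG was 1.20, with an exact binomial 95% interval of 1.17 to 1.23 that covers counting error only, as do the intervals below. The row joins 2 RefSeq messenger RNAs with 7 assembled transcripts over 164 kb, so a value cannot be given to one FSHR isoform.

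LHCGR (MSTRG.2822, NC_013670.1, 137624956 to 137677336, plus strand) lies on the same sequence as FSHR and joins 6 messenger RNAs with 1 assembled transcript. It had 3452 counts (50.8 CPM) in LAC and 2705 counts (34.2 CPM) in CG, a ratio of 1.49 (1.39 to 1.60). The LHCGR ratio was above that of FSHR, and their counting intervals do not overlap. On the log2 scale 93.6% of coding genes had a lower difference than LHCGR, and 82.2% a lower one than FSHR.

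PRLR (MSTRG.10135, NC_013679.1, 56381459 to 56565232, minus strand) had 20884 counts (308 CPM) in LAC and 18842 counts (238 CPM) in CG. Its ratio was 1.29 (1.26 to 1.33), between those of FSHR and LHCGR, and its interval overlaps neither. The row joins 8 messenger RNAs, and the split between the long and short prolactin receptor forms known in mammals was not analysed here.

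PTGFR (gene 100344670, NC_013681.1, 86862035 to 86904435, minus strand) was near the lower end of what these libraries resolve. It had 90 counts (1.33 CPM) in LAC and 48 counts (0.61 CPM) in CG, which are about 45 and 24 reads. The ratio of 2.19 had the widest interval among the 6 genes with a higher count in LAC, 1.30 to 3.75. The log2(CPM + 1) difference was 0.53, a scale that understates the difference of low genes; with a pseudocount of 0.1 it was 1.01, past the size rule.

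The 2 estrogen receptor genes differed in opposite directions. ESR1 (MSTRG.11544, NC_013680.1, 141693612 to 142168073, plus strand) had 11377 counts (168 CPM) in LAC and 8497 counts (107 CPM) in CG, a ratio of 1.56 (1.50 to 1.62). ESR2 (gene 100346748, NC_013688.1, 11919195 to 11973569, minus strand) had 30 counts (0.44 CPM) in LAC and 117 counts (1.48 CPM) in CG.

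About 15 reads in LAC and 58.5 in CG stand behind ESR2, which gives a 3.34-fold lower value in LAC (1.86 to 6.30). On the log2(CPM + 1) scale the ESR2 difference was -0.78, and 15.8% of coding genes had a lower one. With a pseudocount of 0.1 it was -1.54, past the size rule. The oocyte marker sum was lower in LAC too, by 5.12-fold, and its part in the ESR2 difference was not tested.

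PGR (MSTRG.955, NC_013669.1, 115600743 to 115672617, plus strand) had 3893 counts (57.3 CPM) in LAC and 2823 counts (35.7 CPM) in CG. Its ratio of 1.61 (1.50 to 1.72) overlapped in interval with those of ESR1 and LHCGR. On the log2(CPM + 1) scale PGR and ESR1 had the highest differences of the 7, 0.67 and 0.64, with 95.5% and 95.0% of coding genes below them; by ratio, and with a pseudocount of 0.1, PTGFR stood above both.

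Levels could not be ordered between receptor genes per length, since the gene table gives a span and no exon length. The deposited gene FPKM does not serve in its place. At loci with 1 long non-coding transcript it was within 10% of the transcript's own FPKM at 5.87% of 8638 loci in LAC and 6.17% of 8651 in CG. For MSTRG.10136 in PRLR, for example, the gene table has 246 FPKM in LAC, whereas its 1 transcript is listed with 10.4 FPKM.

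The assembled loci named after receptors were mostly higher in LAC than in CG, as are most rows of this kind. Of the 9 loci, 8 had a positive difference and 0 passed the size rule; in rows without a messenger RNA that carry a gene name (8448 with enough counts), 66.8% had a positive difference, 6.18% were higher and 4.06% lower. On the log2(CPM + 1) scale, which shrinks the differences of low loci, the locus exceeded its own gene in 6 of 9, and in 72.2% of 4376 such rows over all coding genes. By the ratio of CPM it did so in 8 of 9, and in 75.8% of all such rows. The median excess on the log2 scale was 0.33 at the receptor genes and 0.36 over all, so the receptor loci follow the table as a whole.

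**Figure D2:**
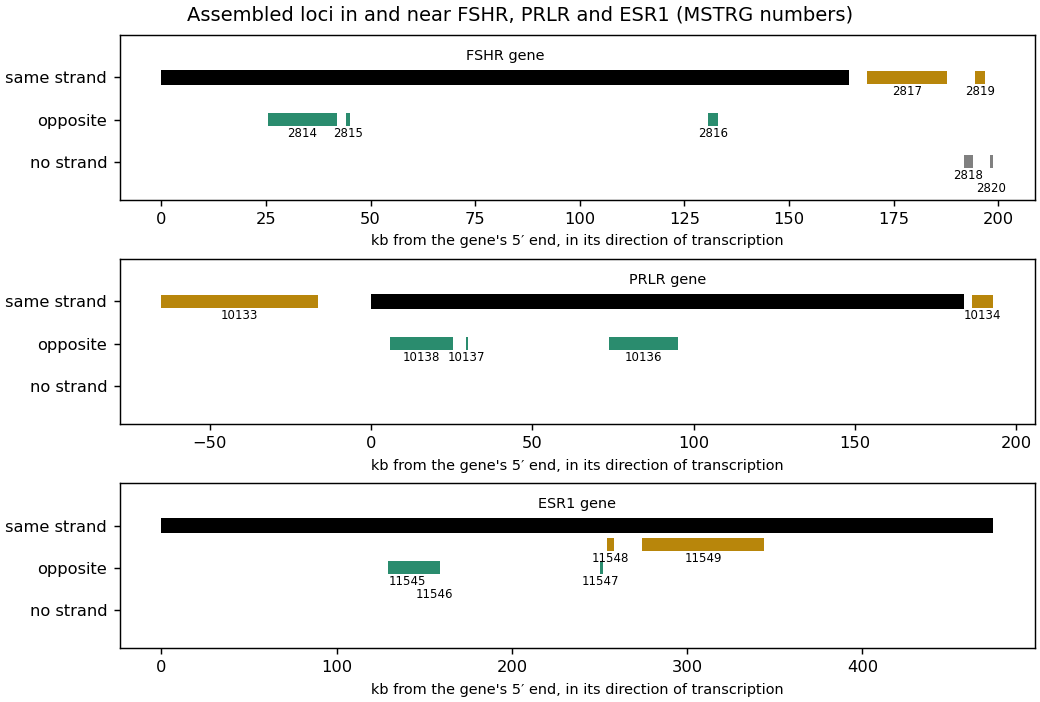
Maps of FSHR, PRLR and ESR1 (black bars) with assembled loci that lie in them or nearby, numbered by MSTRG identifier, drawn to scale in kb from the gene's 5′ end in its direction of transcription. Rows show the strand relative to the gene (gold same, green opposite, grey none). All 3 loci named after FSHR and all 3 named after PRLR are on the opposite strand. MSTRG.2817 and MSTRG.10134 follow the 3′ ends of FSHR and PRLR on the same strand.

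FSHR holds 3 such loci, each of 1 transcript assigned to the opposite strand. MSTRG.2814, from 25.5 to 41.9 kb behind the FSHR 5′ end, had 61.4 CPM in LAC and 38.9 CPM in CG, a ratio of 1.58 (1.48 to 1.69). MSTRG.2815, a locus of 0.89 kb, had 4.18 CPM in LAC and 2.24 CPM in CG, and MSTRG.2816 had 12.6 CPM in LAC and 10.4 CPM in CG. MSTRG.2816, with a ratio of 1.21, is the locus whose difference matched that of FSHR itself. Together the 3 loci held 0.188 of the FSHR count in LAC and 0.149 in CG.

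PRLR differs from FSHR and ESR1 in that its inner loci together hold more counts than the gene row. CPM is not scaled by length, and MSTRG.10136 and MSTRG.10138 span 21.6 and 19.4 kb. The counts therefore do not rank the RNA levels of these loci and PRLR. MSTRG.10138, from 6.03 to 25.5 kb behind the PRLR 5′ end, had 282 CPM in LAC and 167 CPM in CG, a ratio of 1.69 (1.64 to 1.75). MSTRG.10136, from 73.7 to 95.2 kb, had 252 CPM in LAC and 165 CPM in CG (ratio 1.53, 1.48 to 1.58), and MSTRG.10137, a locus of 0.44 kb, had 20.5 CPM in LAC and 11.7 CPM in CG. The 3 loci summed to 555 CPM in LAC and 343 CPM in CG, which is 1.80 and 1.44 times the PRLR row in LAC and CG. Each is placed on the strand opposite to PRLR. No row of this kind carries the name of LHCGR, PTGFR, ESR2 or PGR.

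ESR1 holds 3 loci under its own name, on both strands. MSTRG.11546, on the opposite strand, had 22.8 CPM in LAC and 11.1 CPM in CG. Its ratio of 2.04 (1.82 to 2.31) and log2 difference of 0.97 put it closest to the size rule among all 16 rows with a receptor name. On the same strand, MSTRG.11548 had 9.50 CPM in LAC and 5.80 CPM in CG (ratio 1.64), and MSTRG.11549 had 1.34 CPM in LAC and 1.60 CPM in CG, with a ratio of 0.835 whose interval, 0.561 to 1.24, includes 1. MSTRG.11549 was the single inner locus below 0.

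Per the labels' protocols the libraries carried dUTP in the second strand, which is used to preserve strand. The labels do not say whether counting used strand, and loci such as MSTRG.2818 have none. Reads from a receptor gene's unspliced RNA and from an opposite-strand locus inside it therefore cannot be told apart. The share of counts in rows without a messenger RNA was higher in LAC than in CG, as were most of these loci, and has no HAC value. The spliced share was lower in the LAC and HAC files than in the CG file. Of the 7 transcripts named after a receptor, 4 had a higher FPKM in HAC than in CG, and those named after ESR1 did not. The part of these shares in the ratios was not tested.

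**Figure D3:**
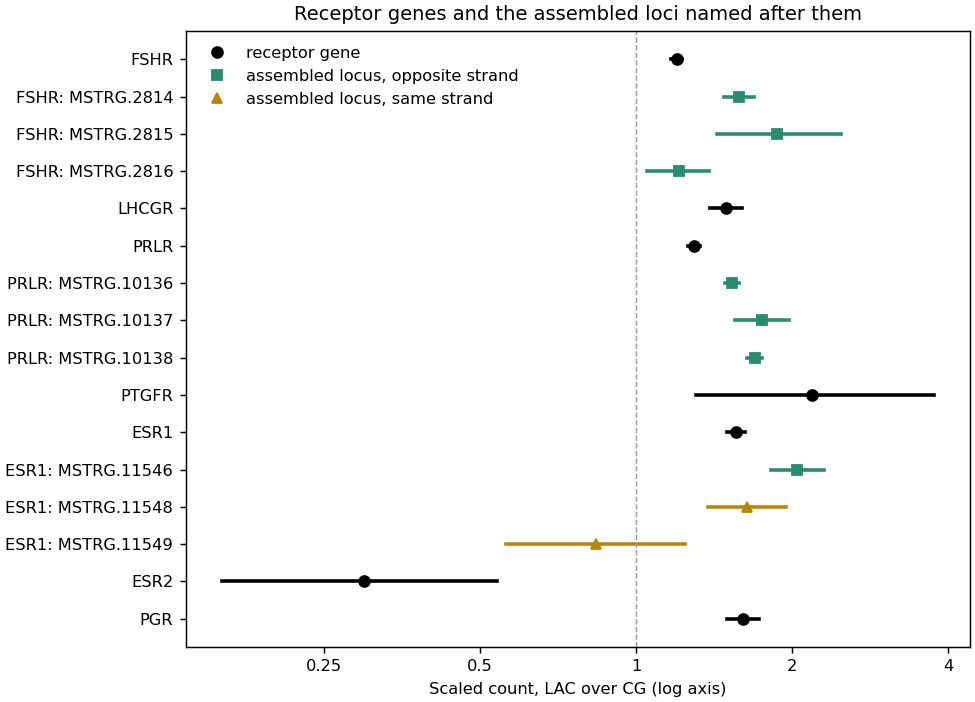
Ratio of TMM-scaled count, LAC over CG (log axis), for the 7 receptor genes (black circles) and the 9 assembled loci named after them (green squares opposite strand, gold triangles same strand); bars are exact binomial 95% intervals for counting error only. ESR2 (0.299) lies left of 1 with its whole interval, MSTRG.11549 (0.835) has an interval across 1, and the other 14 lie to the right of 1.

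The long non-coding table follows the receptor loci through all 3 ammonia levels. Within 100 kb of the 7 genes it lists 23 transcripts, 21 of them with at least 1 FPKM in a library, and none lies within 100 kb of LHCGR or PTGFR. FPKM is scaled by transcript length, so these levels can be compared between transcripts. The FPKM values were used as deposited. Scaling them by median-of-ratios factors instead (1.22 for LAC, 0.940 for HAC, 0.896 for CG) lowers every LAC to CG ratio and leaves the HAC to CG ratios near their deposited values.

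At FSHR the 3 inner transcripts had higher FPKM in both ammonia libraries than in CG. MSTRG.2814.1 stood at 2.20 FPKM in CG, at 3.32 FPKM in LAC and at 3.42 FPKM in HAC. MSTRG.2815.1 stood at 2.32 FPKM in CG, at 4.16 FPKM in LAC and at 3.72 FPKM in HAC, and MSTRG.2816.1 stood at 4.30 FPKM in CG, at 4.97 FPKM in LAC and at 5.10 FPKM in HAC. The HAC to CG ratios of MSTRG.2814.1 and MSTRG.2815.1 had counting intervals of 1.46 to 1.66 and 1.21 to 2.12. The LAC to CG direction of MSTRG.2816.1 depends on the scaling: its ratio is 0.845 with median-of-ratios factors, whereas its HAC to CG ratio is then 1.13.

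MSTRG.2817.1 begins 4.20 kb behind the 3′ end of FSHR on the same strand. It stood at 1.74 FPKM in CG, at 2.66 FPKM in LAC and at 1.53 FPKM in HAC. Unlike the transcripts inside FSHR, it was lower in HAC than in CG, with a ratio interval of 0.813 to 0.949.

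The transcript with the highest FPKM near any receptor gene was MSTRG.10134.1, of 6471 bases, which begins 2.56 kb behind the 3′ end of PRLR on the same strand. It stood at 64.5 FPKM in CG, at 94.0 FPKM in LAC and at 40.2 FPKM in HAC. HAC thus stood lowest, at 0.428 of LAC (0.418 to 0.438) and below CG, with an interval of 0.608 to 0.638 for HAC over CG. The LAC to CG ratio of this transcript was 1.46 (1.43 to 1.49). With median-of-ratios factors it was 1.07, and the HAC to CG ratio 0.593.

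Inside PRLR, MSTRG.10136.1 stood at 7.07 FPKM in CG, at 10.4 FPKM in LAC and at 7.32 FPKM in HAC. LAC stood apart, and HAC was close to CG; with median-of-ratios factors the ratios to CG were 1.07 for LAC and 0.986 for HAC. Upstream of PRLR, 16.4 kb away on the same strand, MSTRG.10133.1 had 4.81 FPKM in CG, was listed at 0 in LAC and had 0.10 FPKM in HAC. MSTRG.10133.2 of the same locus stood at 2.28 FPKM in CG, at 0.48 FPKM in LAC and at 0.50 FPKM in HAC. These 2 transcripts are the 2 of 21 that differ by at least 1 on the log2(FPKM + 1) scale in LAC against CG, both lower in LAC.

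At ESR1 the 3 transcripts that carry its name had their lowest value in HAC. MSTRG.11546.1 stood at 1.38 FPKM in CG, at 2.71 FPKM in LAC and at 1.23 FPKM in HAC, and HAC was 0.454 of LAC (0.400 to 0.514). MSTRG.11548.1 stood at 2.10 FPKM in CG, at 3.30 FPKM in LAC and at 1.61 FPKM in HAC. MSTRG.11549.1 stood at 1.16 FPKM in CG, at 0.93 FPKM in LAC and at 0.64 FPKM in HAC. Not all of these differences go beyond counting error. The interval of HAC over CG was 0.773 to 1.02 for MSTRG.11546.1, 0.626 to 0.941 for MSTRG.11548.1 and 0.357 to 0.861 for MSTRG.11549.1. That of HAC over LAC was 0.404 to 0.591 for MSTRG.11548.1 and 0.435 to 1.12 for MSTRG.11549.1. MSTRG.11545.2, which overlaps ESR1 on the opposite strand under another gene name, stood at 1.43 FPKM in CG, at 0.95 FPKM in LAC and at 1.00 FPKM in HAC.

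**Figure D4:**
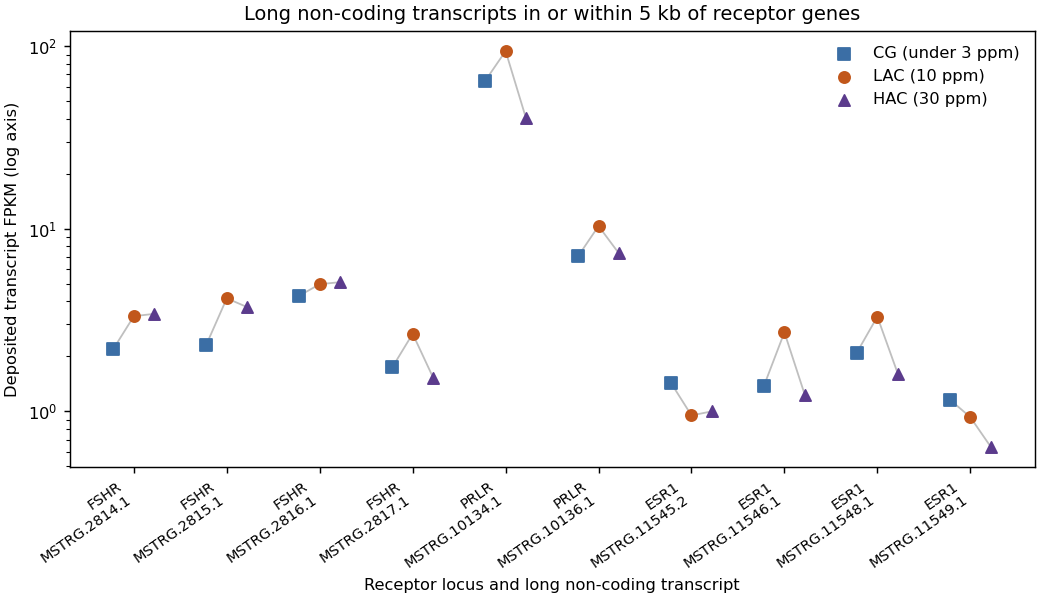
Deposited FPKM (log axis) of the long non-coding transcripts with at least 1 FPKM that overlap FSHR, PRLR or ESR1 or lie within 5 kb of them, in the libraries labelled CG (blue squares), LAC (orange circles) and HAC (purple triangles), with 1 library per group. MSTRG.10134.1, behind PRLR, has 64.5, 94.0 and 40.2 FPKM in that order of libraries, the highest of all. The ESR1 transcripts MSTRG.11546.1, MSTRG.11548.1 and MSTRG.11549.1 have their lowest value in HAC, not in every pair of libraries beyond counting error.

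Over the 7 transcripts named after a receptor, 6 had a higher FPKM in LAC than in CG, 4 in HAC than in CG and 2 in HAC than in LAC. With median-of-ratios factors these counts are 5, 3 and 3 of 7, since MSTRG.2816.1, MSTRG.10136.1 and MSTRG.2815.1 turn in 1 comparison each. All of the 7 are intronic in class except MSTRG.11549.1, which is exon-overlapping and is the 1 lower in LAC than in CG as deposited. Among intronic transcripts with at least 1 FPKM in the higher of the libraries compared, 78.3% were higher to any extent in LAC than in CG, 58.0% in HAC than in CG and 26.3% in HAC than in LAC; with median-of-ratios factors these shares are 63.1%, 54.1% and 41.3%. None of the 7 differed by 1 or more on the log2(FPKM + 1) scale in any of these comparisons. Among the intronic transcripts, 15.1% were higher and 5.52% lower to that extent in LAC against CG, 6.48% higher and 4.58% lower in HAC against CG, and 6.92% higher and 12.9% lower in HAC against LAC. The receptor counts of LAC over CG and HAC over CG share the CG library and are given side by side only. Near PGR, MSTRG.956.1, a transcript of 422 bases, stood at 4.70 FPKM in CG, at 2.72 FPKM in LAC and at 1.88 FPKM in HAC. It lies at a distance of 5.51 kb on the opposite strand. The gene row of its locus, MSTRG.956, went the other way, with 8.67 CPM in LAC and 6.35 CPM in CG, a ratio of 1.37 (1.15 to 1.62). MSTRG.958.1, also near PGR, stood at 1.65 FPKM in CG, at 1.72 FPKM in LAC and at 1.69 FPKM in HAC, values within each other's counting intervals.

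The 8 coding genes within 100 kb of the receptors did not share the receptors' direction as a group, and 38.1% of all coding genes had a positive difference. GTF2A1L, a germ cell form of a general transcription factor subunit, lies 23.4 kb from LHCGR and had 8.14 CPM in LAC and 43.9 CPM in CG, past the size rule. SYNE2, a nuclear envelope protein gene whose end lies 7.12 kb from that of ESR2 on the opposite strand, had 199 CPM in LAC and 367 CPM in CG, a ratio of 0.541 (0.526 to 0.557). IFI44L, an interferon-induced gene 84.7 kb from PTGFR, had 22.7 CPM in LAC and 9.57 CPM in CG, past the size rule. AGXT2, 18.5 kb from PRLR, had 2.99 CPM in LAC and 1.49 CPM in CG, and ARHGAP42, 41.5 kb from PGR, had 105 CPM in LAC and 104 CPM in CG. Near ESR1, CCDC170 had 15.2 CPM in LAC and 13.9 CPM in CG, and LOC108177490 had 11.4 CPM in LAC and 15.8 CPM in CG. LOC100347009, near ESR2, had 0 counts in LAC and 10 in CG.

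The pathway lists around the receptors hold 185 matched genes, each counted once, and 169 had enough counts. By the size rule 5 were higher and 18 lower in LAC, or 2.96% and 10.7% of the 169, against 1.89% and 11.0% of all coding genes. The share of lower genes was thus that of coding genes at large, and the lists below are described against it. The hormones themselves were at or near 0: of 5 matched pituitary hormone genes, CGA, LHB, PRL and TSHB had 0 counts in both libraries, and FSHB had 0 in LAC and 4 counts in CG. A count of 0 allows up to 3 reads, which are 6 counts, or 0.0884 CPM in LAC and 0.0758 CPM in CG.

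Downstream of the gonadotropin receptors, 0 of 28 detected signalling genes were higher and 3 lower; their median was 0.00. The 3 were ADCY3, an adenylyl cyclase, with 6.88 CPM in LAC and 16.7 CPM in CG, RAPGEF3, a cyclic AMP sensor, with 1.31 CPM in LAC and 3.84 CPM in CG, and ARRB2, an arrestin that desensitizes receptors, with 2.28 CPM in LAC and 5.99 CPM in CG. PRKAR2B, a regulatory subunit of protein kinase A that FSH induces in rodent granulosa cells, had 890 CPM in LAC and 677 CPM in CG, a ratio of 1.32 (1.29 to 1.34) short of the size rule. PRKAR1A had 601 CPM in LAC and 699 CPM in CG, and ADCY9 had 231 CPM in LAC and 222 CPM in CG.

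Of the gonadotropin target genes, 3 of 26 detected were higher and 0 lower, and the median was 0.17. PTX3, a matrix protein of the expanded cumulus, had 37.3 CPM in LAC and 13.2 CPM in CG, a ratio of 2.82 (2.55 to 3.13). SGK1, a kinase induced by FSH in rodents, had 289 CPM in LAC and 112 CPM in CG, a ratio of 2.58 (2.49 to 2.68). ADAMTS1, a protease of the ovulating follicle, had 30.4 CPM in LAC and 13.9 CPM in CG.

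The inhibin subunits, classic FSH targets, differed little: INHA had 2379 CPM in LAC and 2219 CPM in CG, INHBA had 2259 CPM in LAC and 2418 CPM in CG, and INHBB had 2668 CPM in LAC and 2881 CPM in CG. CYP19A1, the aromatase gene, had 265 CPM in LAC and 163 CPM in CG, a ratio of 1.63 (1.58 to 1.69) and a log2 difference of 0.70. Of the 16 detected genes of steroid synthesis and conversion, 0 passed the size rule, with a median of 0.09. HSD17B4 had 143 CPM in LAC and 174 CPM in CG. CYB5A, cytochrome b5, had 534 CPM in LAC and 577 CPM in CG. The low genes SRD5A1, a steroid 5-alpha reductase, and CYP1B1, which hydroxylates estradiol, had 2.42 and 4.59 CPM in LAC, against 0.81 and 2.85 CPM in CG.

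Of the prolactin signalling genes, 0 of 16 detected were higher and 1 lower; their median was 0.10. SOCS7, of the family of cytokine signalling suppressors, was the 1, with 45.3 CPM in LAC and 98.4 CPM in CG. SOCS3, which restrains JAK kinases, had 5.46 CPM in LAC and 2.69 CPM in CG, and BTRC, the ubiquitin ligase subunit that targets PRLR for degradation, had 45.1 CPM in LAC and 86.4 CPM in CG, neither past the rule. JAK1 had 158 CPM in LAC and 196 CPM in CG, and PTPN11 and SOS1 had 101 and 137 CPM in LAC, against 89.0 and 119 CPM in CG.

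The prostaglandin list had the lowest median of the lists, -0.50, with 5 of 18 detected genes lower and 0 higher. PTGS1, the constitutive cyclooxygenase, had 0.94 CPM in LAC and 6.77 CPM in CG, 7.18-fold lower (4.97 to 10.7). The prostaglandin transporters were lower too: SLCO2A1 had 0.29 CPM in LAC and 3.70 CPM in CG, and ABCC4 had 2.71 CPM in LAC and 11.1 CPM in CG. ITPR3, a calcium channel downstream of Gq, had 1.94 CPM in LAC and 10.5 CPM in CG, and PRKCB, a protein kinase C, had 0.27 CPM in LAC and 1.78 CPM in CG. AKR1B1, an aldose reductase with prostaglandin F synthase activity, had 163 CPM in LAC and 133 CPM in CG, PTGES3 had 206 CPM in LAC and 229 CPM in CG, and ITPR1 had 69.8 CPM in LAC and 96.9 CPM in CG.

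Of the partners and coregulators of steroid receptors, 1 of 27 detected was higher and 4 lower, with a median of -0.20. NCOA3, a coactivator of ESR1 and PGR, had 82.7 CPM in LAC and 356 CPM in CG, 4.30-fold lower (4.13 to 4.48). MED1, the Mediator subunit that binds nuclear receptors, had 62.0 CPM in LAC and 159 CPM in CG, and NCOA4 had 124 CPM in LAC and 281 CPM in CG. GATA3, a transcription factor, had 5.95 CPM in LAC and 30.4 CPM in CG. CITED2, a coregulator that binds CREBBP and EP300, was the 1 higher, with 54.6 CPM in LAC and 26.3 CPM in CG. The chaperones that hold unliganded steroid receptors were below the rule, HSP90AB1 with 869 CPM in LAC and 1174 CPM in CG and HSPA8 with 859 CPM in LAC and 992 CPM in CG, as was DDX17, an RNA helicase that coactivates ESR1, with 1402 CPM in LAC and 1081 CPM in CG.

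Of the other hormone and local factor receptors, 1 of 35 detected was higher and 5 were lower, with a median of -0.01. NR3C2, the mineralocorticoid receptor, had 14.1 CPM in LAC and 97.2 CPM in CG, 6.88-fold lower (6.25 to 7.58). ERBB3 had 21.2 CPM in LAC and 72.3 CPM in CG, and ACVR2A, an activin receptor, had 46.8 CPM in LAC and 109 CPM in CG. ESRRG, an orphan nuclear receptor, and VDR, the vitamin D receptor, had 2.03 and 0.28 CPM in LAC, against 7.96 and 2.19 CPM in CG.

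TGFBR2 was the 1 higher, with 4.30 CPM in LAC and 0.69 CPM in CG. The 3 with the highest counts stayed within the rule: INSR had 423 CPM in LAC and 380 CPM in CG, BMPR2 had 440 CPM in LAC and 457 CPM in CG, and NR5A2 had 579 CPM in LAC and 669 CPM in CG.

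**Figure D5:**
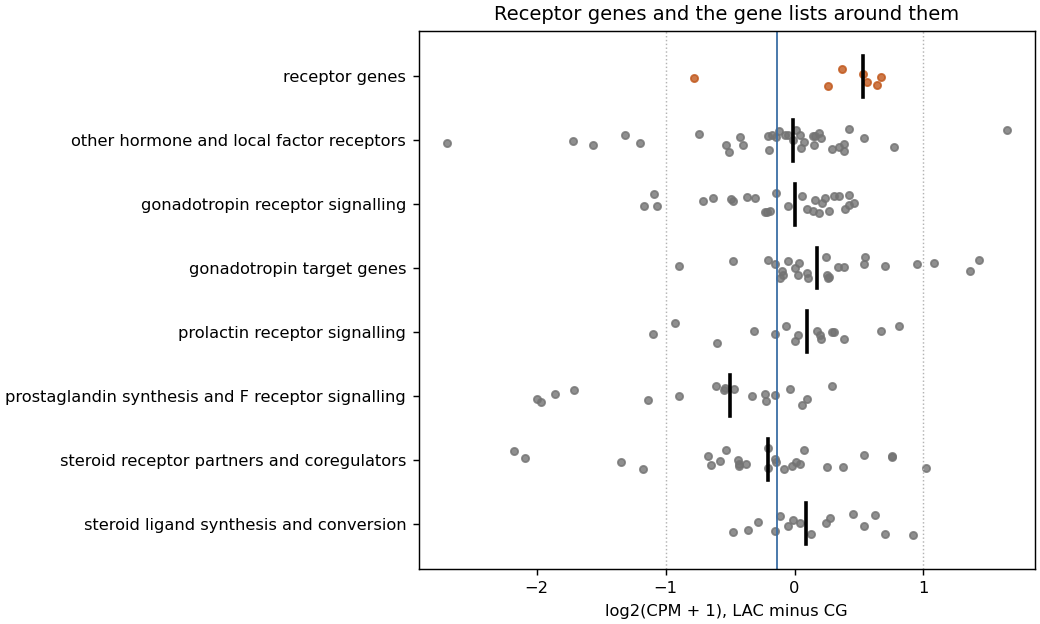
Differences of LAC minus CG on the log2(CPM + 1) scale for the receptor genes (orange) and the detected genes of 7 pathway lists (grey points, 1 per gene; black bars are list medians). The blue line is the median of all coding genes, -0.14, and dotted lines mark the size rule of 1. The receptor genes have a median of 0.53 with ESR2 apart at -0.78, and the prostaglandin list has a median of -0.50. Pituitary hormone genes, none of them detected, are not drawn.

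Markers of other ovarian cells were in the libraries beside the receptors. The theca markers, of which LHCGR is 1, summed to 607 CPM in LAC and 685 CPM in CG, with 0 of 8 past the size rule, and CYP17A1, the defining theca enzyme, had 0.97 CPM in LAC and 0.28 CPM in CG. The luteal markers, of which PTGFR, LHCGR and PRLR are 3, summed to 538 CPM in LAC and 527 CPM in CG, with 1 of 7 higher and 1 lower. PRLR alone gave 308 CPM of the LAC sum and 238 CPM of the CG sum, so this sum is not independent of the receptor values. The other detected luteal markers went both ways. STAR had 48.7 CPM in LAC and 68.0 CPM in CG, and PLIN2 had 79.7 CPM in LAC and 161 CPM in CG. TIMP1 had 34.7 CPM in LAC and 12.7 CPM in CG, and CYP11A1 had 15.6 CPM in LAC and 13.0 CPM in CG. SCARB1 had 0 counts in both. Fibroblast markers summed to 185 CPM in LAC and 61.7 CPM in CG, with 6 of 9 detected higher and 1 lower; POSTN was among the higher, with 59.5 CPM in LAC and 9.99 CPM in CG.

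Smooth muscle and pericyte markers summed to 101 CPM in LAC and 88.9 CPM in CG, with 3 of 9 higher. Endothelial markers summed to 9.04 CPM in LAC and 50.3 CPM in CG, with 0 of 4 detected higher and 1 lower. The 1 was TEK, with 4.23 CPM in LAC and 46.7 CPM in CG, most of the CG sum. Of the 4 detected, 2 lay above 0 and 2 below. Epithelial markers summed to 25.7 CPM in LAC and 85.7 CPM in CG, with 1 of 5 higher, 2 lower, and KRT19, OVGP1 and PAX8 at 0 in both. The lower ones, CDH1 (12.8 CPM in LAC, 64.1 CPM in CG) and EPCAM (4.95 CPM in LAC, 17.7 CPM in CG), make up most of the sum, and KRT18 was higher, with 2.59 CPM in LAC and 0.71 CPM in CG. Macrophage markers summed to 31.5 CPM in LAC and 58.2 CPM in CG, with 2 of 8 higher and 1 lower. The 1 was MSR1, with 8.20 CPM in LAC and 47.3 CPM in CG; the other 7, set apart after the values were seen, summed to 23.3 CPM in LAC and 10.9 CPM in CG. Fibroblast markers stood higher and oocyte markers lower in LAC beside the receptor values, and their part in the receptor differences was not tested.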

How the data were processed

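Each deposited file stacks 5 sections. Per the file headers, the gene table holds estimated counts and FPKM from the authors, and the long non-coding table holds the authors' coverage signal and FPKM. Reads were processed with fastp and HISAT2 on OryCun2.0, per the submitters' processing notes, which give no versions; the assembly step is not stated there or in the labels. Deposited counts equalled coverage times length over 75 at 100% of loci with 1 transcript, against reads of 150 bases, so 1 count is 0.5 reads, and counting intervals used halved counts. The LAC and HAC gene tables were identical and used once; 2 of 12 columns of per-sample values were unused. Long non-coding coverage labelled LAC gave the shared table's count within 5% at 97.3% of 8638 loci, that labelled HAC at 4.15% of 8795.

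Counts were scaled by TMM (30% of ratios and 5% of levels trimmed), computed from the formula and tested on simulated data, with SciPy 1.17.1, numpy 2.4.6, pandas 2.3.3 and Python 3.11.15. A gene had enough counts with 10 in the higher library, and list genes were called detected at a mean of 0.5 CPM. PCR reads are not independent molecules, so intervals cover counting error only. The receptor genes and all lists were chosen with earlier results of these data known. Of each list, the 3 genes of highest mean, the 3 of largest difference with at least 1 CPM and all past the size rule with at least 10 CPM are named. PRKCB, ESRRG and VDR, past the size rule at lower CPM, and the matched pituitary hormone genes are named as well. Of 281 list genes 27 were unmatched, and 9 were matched by gene number through the RefSeq table of mOryCun1.1, used for names alone. Receptor levels per length were not computed, since no exon length is given. No sequence was used here.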

Additional observations from a re-analysis of the deposited data

How the results depend on the processing

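Each receptor gene kept its direction under 3 other scalings (median-of-ratios factors, TMM from coding genes, library totals) and with deposited FPKM. Pseudocounts of 0.1 and 5 and no count minimum, the other alternatives tried, cannot turn a direction. The log2 difference ranged from 0.20 to 0.43 for FSHR, 0.49 to 0.73 for LHCGR, 0.30 to 0.54 for PRLR, 0.17 to 1.01 for PTGFR, 0.57 to 0.81 for ESR1, -1.54 to -0.25 for ESR2 and 0.61 to 0.84 for PGR. With a pseudocount of 0.1, 2 receptor genes passed the size rule instead of 0, PTGFR and ESR2; a smaller pseudocount by construction widens the difference of low genes. That setting gave 943 higher and 2740 lower coding genes, 25.6% of them higher, against 14.6% of calls with a pseudocount of 1. Pathway genes past the rule were 5 higher and 18 lower, and 7 and 14 with TMM from coding genes. The higher ones became 11 with a pseudocount of 0.1, 2 with a pseudocount of 5 and 2 with deposited FPKM, and the lower ones became 10 with a pseudocount of 5, 12 with deposited FPKM and 11 with genes of at least 5 CPM only, which tests fewer genes. Long non-coding transcripts at least 1 apart in LAC against CG were 2, and 4 with a pseudocount of 0.1 and 0 within a window of 10 kb, which holds fewer transcripts. No receptor gene reversed, whereas the direction of MSTRG.2816.1 in LAC against CG (ratio 0.845), of MSTRG.10136.1 in HAC against CG (0.986) and of MSTRG.2815.1 in HAC against LAC turned with median-of-ratios factors. The cause of the FPKM difference was not tested. The counts by ratio of CPM, the counts of named transcripts with median-of-ratios factors and the macrophage sum without MSR1 were chosen after seeing the data. No paired analysis was possible because each group has 1 library and no test was made. Leaving out a replicate was not possible for the same reason. Receptor levels per length were not run. PTGFR and ESR2 rest on 15 to 58.5 reads per library, which limits how closely their ratios are known.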
